A study of Rattus norvegicus with 20 samples.

Results

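The adipose tissue of rats on unrestricted food was compared between 1 month and 1 week of the experiment. The comparison rested on 4 of the 20 arrays of the study, namely the 2 chips of the 1 month control group and the 2 chips of the 1 week control group, which are 2 of 10 RNA pools. Both groups were male Wistar rats, an outbred laboratory strain, bought at 5 weeks of age and housed individually. They ate a powdered purified AIN-93G diet at 100% of the recorded free intake. Rats were fasted for 16 h before visceral white fat was taken, and the RNA of 5 rats was mixed into 1 pool per group, so the 2 chips of a group repeat the hybridisation and carry no spread between rats. The rats of the 1 month group were older as well as longer on the diet, and age and time in the experiment cannot be told apart. In the other 8 pools, rats were offered 5, 10, 20 or 30% less of the same diet (5%CR to 30%CR) for 1 month or 1 week, so these pools give a second view of the same interval in other animals.

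White adipose tissue stores triglyceride in large fat cells and expands as young rats grow. Adipocytes make fatty acids from glucose by a chain of cytosolic enzymes and secrete leptin, a hormone that reports the size of the fat store to the brain. Around them lies a matrix of fibrillar collagens, basement membrane collagens and elastic fibres, which is laid down by fibroblast-like cells and remodelled while the depot grows, and resident macrophages, vessels and their smooth muscle share the tissue.

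The chips agreed well within a pool, with a correlation over log2 signals of 0.979 between the 2 chips of the 1 month control pool and 0.976 between those of the 1 week control pool. All 16 adipocyte markers on the array had a signal of at least 100 in both pools, and their summed signal was 24950 in the 1 month control pool and 23860 in the 1 week control pool. The 1 week control pool stood apart from all others because it held messages of the exocrine pancreas. Of 39 pancreatic enzyme and secretory genes on the array, 0 reached a signal of 100 at 1 month and 29 did at 1 week, and they made up 0.0253 and 0.0245% of the summed signal of the 1 month control chips against 4.85 and 3.87% of that of the 1 week control chips. These genes, and probe sets that followed them over the pools, were set aside, which left 9489 probe sets and 7103 named genes. Genes that pancreas and fat both express remain in the comparison, so beside most results, though not all, stands the value in the restricted pools. These lacked the pancreatic messages apart from a low level in the 30%CR pool at 1 week (mean log2 of the list 5.46, against 2.76 to 3.16 in the other 7 restricted pools). Lymphocyte markers were close in the 2 control pools, with a mean log2 signal of 7.55 at 1 month and 7.69 at 1 week, but spread widely among restricted pools, between 3.79 and 7.53 at 1 month and between 3.74 and 6.80 at 1 week. In bulk tissue, a lower share of a cell type and less RNA per cell cannot be told apart.

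Few genes differed strongly between control fat at 1 month and at 1 week. A probe set was counted as different where the pool means were at least 2-fold apart and all 4 differences between a 1 month chip and a 1 week chip had the same sign, a rule of size that carries no p-value. By this rule 23 of 9489 probe sets (0.242%) were higher at 1 month and 33 (0.348%) were lower. Among the 33 was a probe set without a single gene symbol, with a signal of 1 in the 1 month control pool and 7686 in the 1 week control pool. It had not been set aside, and whether it belongs to the pancreatic messages was not tested. Of the 23 higher, 18 also had a positive difference in the restricted pools, where the 1 week control pool plays no part, and of the 33 lower, 21 also had a negative one. Over all 9489 probe sets 4314 were positive and 5175 negative there, so the 21 of 33 was close to the share of all probe sets. Among the 23 higher probe sets, 12 had their lowest signal of all 10 pools in the 1 week control pool, as 16.26% of all probe sets did, and among the 33 lower, 27 had their highest signal there, as 15.6% of all probe sets did. The rule itself uses that pool, so these counts are a description. When the 5%CR pool at 1 week was put in the place of the 1 week control pool, a comparison added after seeing the data, 7 of the 23 and 5 of the 33 were still at least 2-fold apart. That pool was food-restricted and the 1 month control pool was not, so here and below the swap adds a difference in diet to the interval. Just inside the rule lay Ppp2ca, 2.03-fold higher at 1 month, and Acta2, 2.10-fold lower, and just outside lay Inmt at 1.91-fold higher and Parvb at 1.99-fold lower.

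Smaller differences were common. Of the 7103 genes, 1855 (26.1%) were higher on all 4 chip differences and 1283 (18.1%) were lower, and the median difference over all genes was 0.04 on the log2 scale. The list counts that follow are to be set beside these shares. At least 1.5-fold, with all 4 chip differences of the same sign, 185 genes (2.6%) were higher and 177 (2.49%) were lower. The split depended on scaling: over probe sets, 2393 were higher and 1796 lower on all 4 chip differences after scaling to a common trimmed mean, against 1611 and 684 with the signals as deposited, where the median over all probe sets moved to 0.11.

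A test of the control difference had to borrow its error. With limma fitted to the 10 pools, the spread comes from how the restricted pools depart from a common slope on restriction. The lone control pools are assumed to vary like them. In this fit 3 probe sets fell at an adjusted p under 0.05 (0.0316% of those tested) and 0 rose (0.0%). They were Ggh, the gene for gamma-glutamyl hydrolase, the collagen gene Col1a1 and a probe set without a single gene symbol. The paper lists that probe set under Mt1a and Ttr. Its signal was 73.4 in the 1 month control pool and 378 in the 1 week control pool, its highest of the 10 pools. Between the restricted pools it differed by only 0.03 (log2). At an unadjusted p under 0.05 the same limma fit had 270 higher and 246 lower, and 5% of the probe sets tested would be 474. The restricted pools, 4 at each time, allowed a test of the interval itself, and there limma called 32 genes higher at 1 month (0.451%) and 130 lower (1.83%). Of these, 30 of the 32 and 117 of the 130 differed in the same direction between the control pools, where 56.3% of all genes were positive and 43.7% negative. Counted as probe sets the restricted test had 218 calls, 35 higher and 183 lower, and with the signals as deposited 107 higher and 112 lower. That count rested on few pools and fell to 34, 37, 37 and 66 when the 10%CR, 20%CR, 30%CR or 5%CR pool at 1 week was left out, to 100 and 118 without the 20%CR or 30%CR pool at 1 month, and to 56 when only the chips of replicate 1 were used. A gene is said to have risen or fallen only where limma called it, and the restricted difference is given for 1 month minus 1 week. For each list below, restricted calls are to be set beside the 0.451% and 1.83% of all genes.

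**Figure D1:**
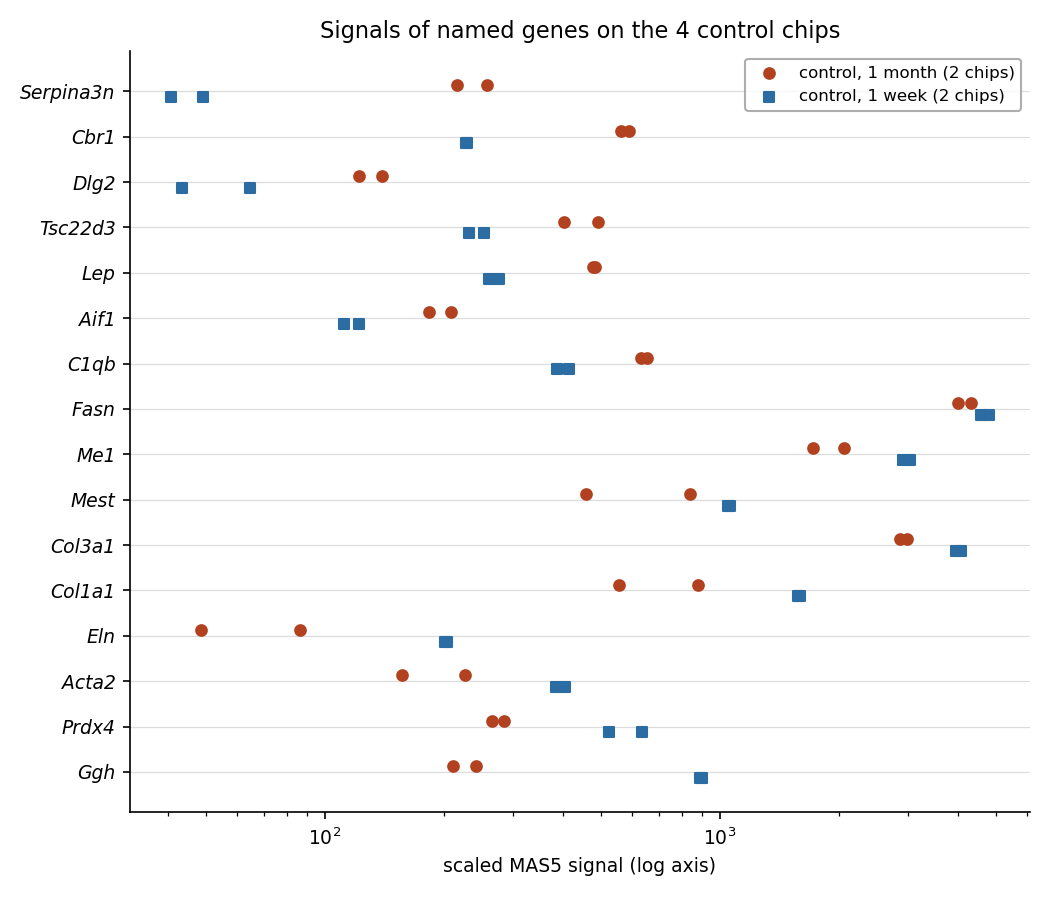
Scaled MAS5 signal (horizontal log axis) of 16 named genes on the 4 control chips, with a circle for each 1 month chip and a square for each 1 week chip. Serpina3n, Cbr1 and Lep were higher on both 1 month chips, and Col1a1, Eln, Me1 and Ggh were lower, without overlap between the groups.

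The widest difference among genes with more signal at 1 month was that of Serpina3n, a secreted serine protease inhibitor of the acute phase. Its signal was 258 and 216 on the 1 month control chips and 40.8 and 49.1 on the 1 week control chips, 5.28-fold higher at 1 month. The groups lay far apart, and in limma the control difference of 2.40 ± 0.56 (log2, SE) did not pass (adjusted p = 0.325). Serpina3n rose in the restricted pools by 2.21 ± 0.28 (limma adjusted p = 0.00614), with signals between 79.0 and 256 at 1 month and between 29.4 and 40.9 at 1 week. It was under 0.05 there in all 24 settings tried. The lowest of the 1 month pools was that with 30% restriction, still above every 1 week pool.

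Cbr1, carbonyl reductase, was also among the genes with a wide difference. It had signals of 587 and 562 on the 1 month control chips and 228 and 228 on the 1 week control chips, 2.52-fold higher. It rose in the restricted pools by 0.99 ± 0.15 (limma adjusted p = 0.0150), and the call was lost when the 5%CR, 10%CR or 20%CR pool at 1 week was left out (up to 0.0913 in limma). The related Cbr3 had 591 and 616 at 1 month against 320 and 391 at 1 week in control fat, and a restricted difference of 0.72 ± 0.17 that did not pass in limma (adjusted p = 0.0633). Nqo1, a quinone reductase, had 101 and 94.6 at 1 month and 34.9 and 49.4 at 1 week, but a restricted difference of only 0.19 ± 0.14 (limma adjusted p = 0.539). Sult1a1, a phenol sulfotransferase, was 1.58-fold higher in control fat and rose by 0.52 ± 0.09 in the restricted pools (limma adjusted p = 0.0209). Of 18 genes of carbonyl and xenobiotic metabolism tested, 8 were higher on all 4 chip differences and 2 lower, with a median of 0.11, and 2 rose in the restricted pools, Cbr1 and Sult1a1. Of 36 glutathione and antioxidant genes, 13 were higher and 4 lower, with a median of 0.08 in the control pools, and again 2 rose, the plasma glutathione peroxidase Gpx3 (control 0.64, restricted 0.37) and the glutathione transferase Gstp1 (control 0.27, restricted 0.49). Both medians were close to the 0.04 of all genes, and they turned to -0.155 and -0.04 with the 5%CR pool at 1 week in place of the 1 week control pool.

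Leptin was more abundant after 1 month. The signal of Lep was 478 and 482 on the 1 month control chips and 261 and 275 on the 1 week control chips. The groups did not overlap, and the control difference was 0.84 ± 0.29, or 1.79-fold (limma adjusted p = 0.756). Lep rose in the restricted pools by 1.02 ± 0.14 (limma adjusted p = 0.0118), with 293 to 664 at 1 month and 200 to 289 at 1 week. Leaving out the 10%CR or the 20%CR pool at 1 week ended that call (up to 0.0725 in limma). The remaining fat cell markers moved little: over the 16 adipocyte markers the median was 0.03 in the control pools and 0.09 in the restricted pools, 6 were higher on all 4 chip differences and 0 lower. The control median was -0.04 without replicate 1 and -0.23 with the 5%CR pool at 1 week in place of the 1 week control pool. The restricted pools had more of these messages (mean log2 of the list 10.0 to 10.3) than the control pools (9.72 at 1 month and 9.67 at 1 week). The fatty acid transporter Cd36 had 2130 and 2164 at 1 month and 1720 and 1854 at 1 week, and the nuclear receptor Pparg had 385 and 376 at 1 month and 358 and 373 at 1 week, which is nearly the same level. Because Lep was the adipocyte marker with the widest change, the 250 bases before its annotated start are shown, from RefSeq on the rat assembly GRCr8, chr4:58626288-58626537, plus strand. The capitals mark TTGCGCAA, a palindromic sequence of the kind bound by C/EBP factors, found 69 bases before the start and present on either strand in 0.164% of 27457 rat promoter windows of this length.
Lep: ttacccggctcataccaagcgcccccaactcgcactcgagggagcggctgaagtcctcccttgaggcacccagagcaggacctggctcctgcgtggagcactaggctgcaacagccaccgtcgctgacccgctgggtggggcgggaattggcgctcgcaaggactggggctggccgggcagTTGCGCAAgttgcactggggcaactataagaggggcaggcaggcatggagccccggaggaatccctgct

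Some further genes were higher at 1 month. Tsc22d3, a glucocorticoid-induced leucine zipper protein, had 492 and 403 at 1 month and 231 and 252 at 1 week in control fat, and rose in the restricted pools by 0.54 ± 0.10 (limma adjusted p = 0.0262). Fkbp5, a co-chaperone of the glucocorticoid receptor, had 199 and 222 at 1 month and 116 and 140 at 1 week, with a restricted difference of 0.51 ± 0.19 that did not pass in limma (adjusted p = 0.198). These were the widest of 18 genes of the glucocorticoid and fasting response, of which 5 were higher and 3 lower, with a median of 0.02, close to the shares and the median of all genes. Sncg, gamma-synuclein, was 1.57-fold higher in control fat and Arrdc3, an arrestin-domain protein, 1.77-fold higher, and both rose in the restricted pools (by 0.60 and 0.99, limma adjusted p = 0.0229 and 0.0302). Dlg2, a scaffold protein, had 122 and 140 at 1 month and 43.6 and 64.7 at 1 week, and rose by 1.16 ± 0.21 in the restricted pools (limma adjusted p = 0.0246), a call lost without any of the 4 pools at 1 week, without the 20%CR pool at 1 month and without replicate 2 (up to 0.177 in limma). Ppp2ca, the catalytic subunit of protein phosphatase 2A, had 127 and 142 at 1 month and 80.4 and 54.4 at 1 week, and the restricted pools hardly differed (0.22 ± 0.10, limma adjusted p = 0.314).

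The clearest change in a gene group was in the collagens, which were lower at 1 month. All 15 collagen chain genes tested, of 19 on the array, had a negative difference between the control pools, with a median of -0.38, and 11 were lower on all 4 chip differences, where 18.1% of all genes were. With the signals as deposited 6 of the 15 were lower on all 4 chip differences, with a median of -0.31, and without replicate 2 the median was -0.25. In the restricted pools 14 of the 15 fell in limma, where 1.83% of all genes did, with a median of -0.69. The exception was Col12a1, with 42.2 and 39.5 at 1 month and 45.7 and 40.8 at 1 week in control fat and a restricted difference of -0.18. Leaving out a pool or a replicate gave between 8 and 14 called chains, with 8 when the 10%CR, 20%CR or 30%CR pool at 1 week or replicate 2 was left out and 9 without the 5%CR pool at 1 week or the 30%CR pool at 1 month, and scaling by the median gave 8. With the 5%CR pool at 1 week in place of the 1 week control pool, 15 of 15 were lower on all 4 chip differences and the median was -0.69.

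Col1a1, a chain of fibrillar type I collagen, had 879 and 556 on the 1 month control chips and 1575 and 1591 on the 1 week control chips, 2.27-fold lower at 1 month. Both 1 month chips lay well under both 1 week chips, although they differed from each other. The control difference of -1.18 ± 0.17 passed in limma (adjusted p = 0.0478), but only 9 of the 24 settings tried kept it, with adjusted p between 0.00414 and 0.429. It was lost without replicate 2, without any of the 4 restricted pools at 1 week and without the 20%CR or 30%CR pool at 1 month. In the restricted pools Col1a1 fell by 1.85 ± 0.09 (limma adjusted p = 2.55e-05, under 0.05 in all 24 settings), with 404 to 611 at 1 month and 1478 to 2245 at 1 week. The partner chain Col1a2 had 1037 and 961 at 1 month and 1514 and 1497 at 1 week, and fell by 1.12 ± 0.14 in the restricted pools (limma adjusted p = 0.00623). Col3a1, the chain of type III collagen, had 2975 and 2856 at 1 month and 3953 and 4073 at 1 week, a control difference of -0.46 ± 0.14 and a restricted fall of 0.69 ± 0.07 (limma adjusted p = 0.00151). The 3 genes shared the direction in both sets of pools, and their differences were not tested against each other.

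Collagens of the basement membrane and of beaded filaments were lower too. Col4a2, of the basement membrane, had 583 and 364 at 1 month and 738 and 780 at 1 week in control fat. Col6a3, of the beaded filaments around fat cells, had 295 and 272 at 1 month and 446 and 524 at 1 week. The control differences of Col4a2, Col6a2, Col6a3 and the minor fibrillar chain Col5a3 lay between -0.77 and -0.71, and their restricted differences between -1.03 and -0.93, all called in limma. Col5a1 and Col15a1 overlapped between the control groups, with 188 and 224 at 1 month and 223 and 264 at 1 week for Col5a1 and 596 and 498 at 1 month and 577 and 643 at 1 week for Col15a1, yet both fell in the restricted pools, by 0.92 and 0.48 (limma adjusted p = 0.00109 and 0.0132).

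**Figure D2:**
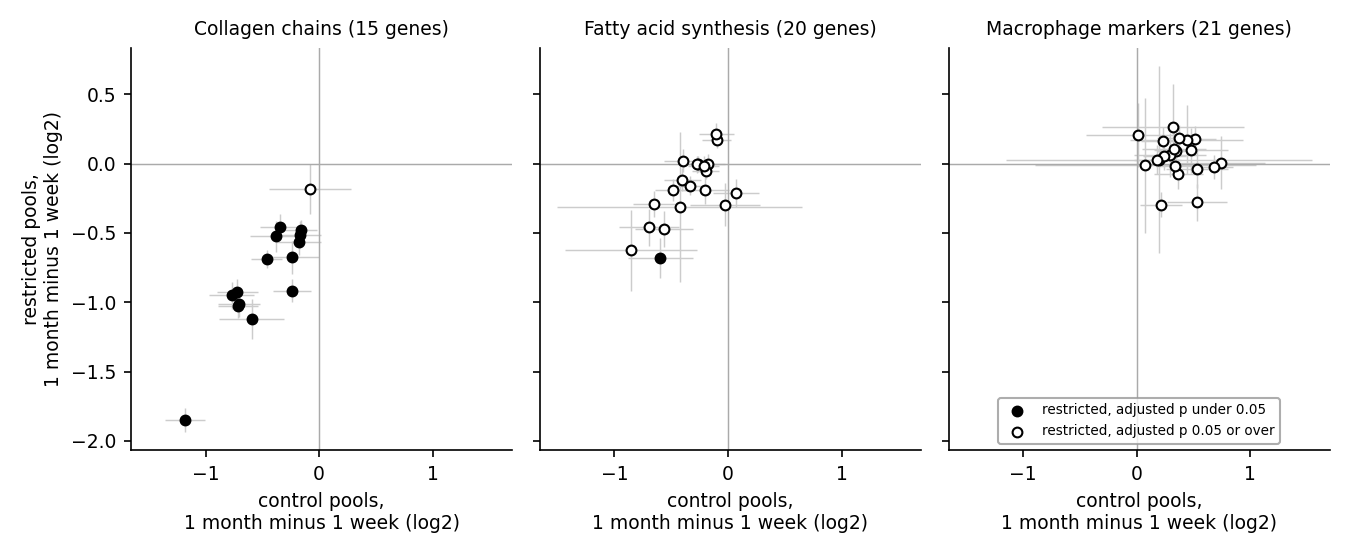
Difference of 1 month minus 1 week (log2) in the control pools (horizontal axis) and in the restricted pools (vertical axis) for the genes of 3 lists, with bars of 1 SE from limma and filled points where the restricted adjusted p is under 0.05. The 15 collagen chains lie in the lower left, with Col1a1 at -1.18 and -1.85, while the 21 macrophage markers lie to the right of 0 in the control pools and around 0 in the restricted pools.

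Elastic fibre and other matrix genes followed in part. Eln, elastin, had 86.8 and 48.5 at 1 month and 204 and 201 at 1 week in control fat, 3.12-fold lower, which missed the threshold in limma (-1.64 ± 0.27, adjusted p = 0.0883). It fell in the restricted pools by 1.70 ± 0.14 (limma adjusted p = 9.49e-04). Of 33 matrix glycoprotein genes tested, 5 were higher and 14 lower on all 4 chip differences in control fat, with a median of -0.12. Of all genes, 26.1% were higher and 18.1% lower. In the restricted pools 12 fell and 0 rose, where 1.83% of all genes fell. Postn, periostin, had 603 and 578 at 1 month and 822 and 1053 at 1 week, and Sparc, a collagen-binding matrix protein, had 2205 and 1492 at 1 month and 2737 and 2638 at 1 week. Neither overlapped between the groups, and both fell in the restricted pools, by 0.70 and 0.53 (limma adjusted p = 0.0137 and 0.0145). Fbn1, fibrillin, and Fn1, fibronectin, overlapped between control groups, with control differences of -0.26 and -0.17, and fell in the restricted pools by 1.06 and 0.78 (limma adjusted p = 9.49e-04 and 0.00109). A few matrix genes went the other way in control fat: Fbln1, fibulin, had 50.0 and 40.2 at 1 month and 27.8 and 15.2 at 1 week, and Fmod, fibromodulin, had 347 and 429 at 1 month and 235 and 280 at 1 week. Their restricted differences were both -0.30 and were not called in limma (adjusted p = 0.464 and 0.491).

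Genes that fold, trim and crosslink collagen shared the direction at a smaller size. Of 15 tested, 0 were higher and 8 lower on all 4 chip differences, where 26.1% of all genes were higher and 18.1% lower. The median was -0.12, and 5 fell in the restricted pools, where 1.83% of all genes did. P4ha1, a prolyl hydroxylase of collagen, had 148 and 139 at 1 month and 222 and 227 at 1 week in control fat and fell by 0.58 ± 0.10 in the restricted pools (limma adjusted p = 0.0206). Pcolce, which enhances the trimming of procollagen, was 1.30-fold lower in control fat and the collagen chaperone Serpinh1 1.15-fold lower. Lox, which crosslinks collagen and elastin, overlapped with 86.6 and 109 at 1 month and 79.2 and 140 at 1 week and fell by 0.95 ± 0.17 in the restricted pools (limma adjusted p = 0.0244). Matrix proteases and their inhibitors had a median of 0.28 over 11 genes in control fat, of which 6 were higher on all 4 chip differences and 1, the protease inhibitor Timp3, was lower. The direction was not stable, as the median was 0.06 without replicate 1 and -0.04 with the 5%CR pool at 1 week in place of the 1 week control pool. Restricted fat had a median of -0.29 and 3 genes that fell, Timp3, Mmp14 and Mmp2.

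Fatty acid synthesis genes were lower at 1 month in control fat, by small amounts. Of 20 tested, 16 were lower on all 4 chip differences and 0 higher, where 18.1% of all genes were lower and 26.1% higher. The median was -0.30. With the signals as deposited 7 of the 20 were lower on all 4 chip differences, with a median of -0.23, and with the 5%CR pool at 1 week in place of the 1 week control pool 14 were lower and 2 higher, with a median of -0.31. Restricted fat gave a median of -0.17 and 1 gene that fell, so the group's lower level was not called there. Me1, malic enzyme, which makes NADPH for the pathway, had 2056 and 1720 at 1 month and 2902 and 3022 at 1 week in control fat, with a restricted difference of -0.29 ± 0.09 (limma adjusted p = 0.154). Fasn, the fatty acid synthase itself, had 4318 and 4016 at 1 month and 4794 and 4590 at 1 week, and Scd, stearoyl-CoA desaturase, had 5710 and 5285 at 1 month and 7218 and 6117 at 1 week. Neither overlapped between the groups, but for both genes the nearest chips of the 2 groups lay closer together than the 1 month chips did, and their restricted differences were 0.00 to 2 decimals. Pnpla3, a lipid droplet protein regulated with lipogenesis, had 342 and 364 at 1 month and 515 and 552 at 1 week, and was the gene that fell in the restricted pools (-0.68 ± 0.14, limma adjusted p = 0.0425), a call lost without any of the 4 pools at 1 week, without the 5%CR, 10%CR or 30%CR pool at 1 month and without replicate 2 (up to 0.189 in limma). Of the transcription factors of the pathway, Mlxipl, the carbohydrate-responsive ChREBP, had 55.2 and 65.7 at 1 month and 91.0 and 104 at 1 week, whereas Srebf1, SREBP-1, overlapped with 458 and 405 at 1 month and 342 and 494 at 1 week. For Mlxipl the 1 week control pool was the highest of the 10 pools. Its restricted difference of -0.46 ± 0.13 was not called in limma (adjusted p = 0.129).

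The promoter windows of 2 of these genes are shown, and whether they bear on the lower level of the group was not tested. They are the 250 bases before the annotated start in RefSeq GRCr8, written in the gene's own direction: Acly, ATP citrate lyase, chr10:85963632-85963881, and Mlxipl, chr12:27213661-27213910, both on the minus strand. Capitals mark CCAAT, the letters bound by NF-Y, or its reverse complement ATTGG.
Acly: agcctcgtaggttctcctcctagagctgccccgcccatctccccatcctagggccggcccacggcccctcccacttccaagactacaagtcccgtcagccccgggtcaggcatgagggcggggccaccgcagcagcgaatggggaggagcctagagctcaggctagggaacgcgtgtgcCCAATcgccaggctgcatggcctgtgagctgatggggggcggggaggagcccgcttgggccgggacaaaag
Mlxipl: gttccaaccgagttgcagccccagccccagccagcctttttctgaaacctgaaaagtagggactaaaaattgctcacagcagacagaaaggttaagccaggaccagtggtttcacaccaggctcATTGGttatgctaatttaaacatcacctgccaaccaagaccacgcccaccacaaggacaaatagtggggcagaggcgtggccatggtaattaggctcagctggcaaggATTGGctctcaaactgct

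The letters lie 71 bases before the start in Acly and, as the reverse complement, 126 and 18 bases before it in Mlxipl. CCAAT on either strand was found in 12 of 17 fatty acid synthesis genes with a window (70.6%), in 4 of 10 collagen chains (40%), in 5 of 14 macrophage markers (35.7%) and in 34.3% of all 27457 windows. The motif was chosen after the values were seen. The same windows were searched for TATAAA, found in 1 of 17 fatty acid synthesis genes (5.88%), 1 of 10 collagen chains (10%) and 3 of 14 macrophage markers (21.4%), against 13.1% of all windows. A search for TTGCGCAA found it in 0 of the windows of these lists. Within the fatty acid synthesis genes, 8 of the 12 with the letters were lower on all 4 chip differences (median -0.21) and so were 5 of the 5 without them (median -0.40).

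Other lipid and energy genes differed little. Of 11 triglyceride synthesis genes, 2 were higher and 5 lower on all 4 chip differences, with a median of -0.13 that turned to 0.07 without replicate 2. Gpam, the mitochondrial glycerol-3-phosphate acyltransferase, had 154 and 157 at 1 month and 241 and 226 at 1 week in control fat, and fell in the restricted pools by 0.52 ± 0.10 (limma adjusted p = 0.0326). Pck1, which supplies glycerol for re-esterification, ran the other way, with 1574 and 1491 at 1 month and 1008 and 1176 at 1 week, and a restricted difference of 0.31 ± 0.12 (limma adjusted p = 0.224). Of 16 lipolysis and lipid droplet genes, 8 were higher and 1 lower, with a median of 0.08 (-0.25 with the 5%CR pool at 1 week in place of the 1 week control pool), among them G0s2, an inhibitor of the triglyceride lipase ATGL, with 1329 and 1343 at 1 month and 971 and 1267 at 1 week. G0s2 rose in the restricted pools by 0.87 ± 0.12 (limma adjusted p = 0.0104). Slc27a1, a fatty acid transport protein, was lower in control fat, with 353 and 394 at 1 month and 583 and 671 at 1 week, and was not called in the restricted pools (-0.22 ± 0.11, limma adjusted p = 0.334). Oxidative phosphorylation genes, 54 of them, had a median of 0.11, with 22 higher and 3 lower on all 4 chip differences, and the 21 genes of the TCA cycle a median of 0.13, with 10 higher and 2 lower. No gene of either list was called in the restricted pools. The median of oxidative phosphorylation was 0.21 there. The medians were 0.03 for oxidative phosphorylation and -0.155, a turned direction, for the TCA cycle with the 5%CR pool at 1 week in place of the 1 week control pool.

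Macrophage markers were higher at 1 month in control fat and not in restricted fat. All 21 tested were positive in the control pools, with a median of 0.33, and 17 were higher on all 4 chip differences and 0 lower, where 26.1% of all genes were higher. In the restricted pools the median was 0.05 and 0 of the 21 were called. C1qb, a subunit of the complement recognition molecule C1q that macrophages make, had 630 and 652 on the 1 month control chips and 387 and 416 on the 1 week control chips. The 1 month control chips were also above all 8 restricted pools, which lay between 383 and 430 at 1 month and between 353 and 456 at 1 week, with a restricted difference of -0.03 ± 0.09. Aif1, a calcium-binding protein of macrophages, had 208 and 184 at 1 month and 122 and 112 at 1 week, and Cd14, the endotoxin co-receptor, had 425 and 394 at 1 month and 295 and 280 at 1 week. Csf1r, the receptor that sustains macrophages, was less apart, with 320 and 298 at 1 month and 254 and 281 at 1 week. No macrophage marker passed the control test in limma, and the difference between the control and the restricted intervals was not called for any of them. With the 5%CR pool at 1 week in place of the 1 week control pool 18 of the 21 were higher and 0 lower. That substitution gave a macrophage median of 0.61. Of 16 lymphocyte markers, 1 was higher and 5 lower between the control pools, with a median of -0.17 that turned to 0.08 without replicate 1 and to 0.71 with the substituted pool. The mean log2 signal of the macrophage list was 8.63 at 1 month and 8.28 at 1 week in control fat, and between 7.74 and 8.23 over the restricted pools, so both control pools lay above all restricted pools, as they did for the lymphocyte list.

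Complement genes gave a like picture, and 3 of them, the C1q chains, are in both lists. Of 14 tested, 10 were higher and 0 lower on all 4 chip differences, where 26.1% of all genes were higher and 18.1% lower. The median was 0.34 in the control pools and -0.03 in the restricted pools, where 0 were called. With the substituted 5%CR pool at 1 week, 7 were higher and 1 lower, with a median of 0.22. C3, the central component of the cascade, had 71.8 and 97.7 at 1 month and 48.9 and 52.9 at 1 week. C1r, a protease of the C1 complex, had 412 and 397 at 1 month and 237 and 328 at 1 week. Their restricted differences were -0.24 and -0.23, neither called in limma (adjusted p = 0.427 and 0.318).

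Smooth muscle genes were lower at 1 month in control fat. Of 12 tested, 8 were lower on all 4 chip differences and 0 higher, where 18.1% of all genes were lower and 26.1% higher. The median was -0.37 in the control pools, against 0.28 and 0 calls in the restricted pools. With the signals as deposited, 5 were lower and 1 higher. Acta2, smooth muscle actin, had 226 and 157 at 1 month and 385 and 406 at 1 week, 2.10-fold lower, with a restricted difference of -0.75 ± 0.23 (limma adjusted p = 0.137). Myh11, smooth muscle myosin, had 272 and 264 at 1 month and 412 and 401 at 1 week, but was between 266 and 671 at 1 month and between 269 and 397 at 1 week in the restricted pools. Against the 5%CR pool at 1 week the 1 month control pool was not lower. With that pool in place of the 1 week control pool the median was 0.04, with 4 genes higher and 3 lower. Among vessel and progenitor genes, 4 of 16 endothelial and 3 of 14 progenitor markers fell in the restricted pools, where 1.83% of all genes did. In control fat the medians were -0.01 and -0.04. Cd248, endosialin of stromal cells, had 246 and 152 at 1 month and 289 and 286 at 1 week in control fat and fell by 1.01 ± 0.15 in the restricted pools (limma adjusted p = 0.0136).

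Imprinted and growth-related genes were lower in part. H19, an imprinted non-coding RNA, had 43.0 and 30.5 at 1 month and 69.1 and 70.2 at 1 week in control fat, and fell by 1.18 ± 0.15 in the restricted pools (limma adjusted p = 0.00569). Mest, an imprinted gene tied to the growth of fat, had 840 and 457 at 1 month and 1046 and 1062 at 1 week, and fell by 0.82 ± 0.17 in the restricted pools (limma adjusted p = 0.0360), a call lost without any of the 4 pools at 1 week, without the 5%CR pool at 1 month and without replicate 2 (up to 0.309 in limma). Within each duration Mest was also lowest at the strongest restriction, with 182 at 30%CR against 620 in the control at 1 month and 473 at 30%CR against 1054 in the control at 1 week. Igf2, a fetal growth factor, was 1.21-fold lower in control fat, 55.9 and 52.8 at 1 month against 60.2 and 72.2 at 1 week, and fell by 0.73 ± 0.11 in the restricted pools (limma adjusted p = 0.0158). Igf1, the growth factor of postnatal life, had 847 and 773 at 1 month and 1027 and 1224 at 1 week and a restricted difference of -0.47 ± 0.17 that was not called in limma (adjusted p = 0.185). Of 17 genes of this list, 5 were higher and 8 lower in control fat, with a median of -0.02, and 4 fell in the restricted pools. Cell division genes did not separate the groups: of 38 tested, 0 were higher and 5 lower, with a median of -0.02 (0.24 with the 5%CR pool at 1 week in place of the 1 week control pool), and Mki67, a marker of dividing cells, lay near the low end of the measured range at 23.5 and 30.9 at 1 month and 47.5 and 33.4 at 1 week.

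Some genes of the negative arm and the output of the circadian clock were lower. Nr1d1, the nuclear receptor REV-ERB alpha, had 41.7 and 33.1 at 1 month and 72.8 and 49.2 at 1 week in control fat, and fell by 1.32 ± 0.13 in the restricted pools (limma adjusted p = 0.00157). Dbp, a clock-driven transcription factor, had 24.7 and 23.7 at 1 month and 40.5 and 36.8 at 1 week, and was not called in the restricted pools (-0.83 ± 0.21, limma adjusted p = 0.0841). On the 1 month control chips Dbp lay under 26, the mean signal that the filter asked for, so its control difference is near the low end. Its level in the restricted pools was far above that of the controls, 85.9 to 203 at 1 month and 240 to 306 at 1 week. Of the 9 genes tested, 4 were lower on all 4 chip differences and 0 higher, with a median of -0.15, and 2 fell in the restricted pools, Nr1d1 and Bhlhe41. The time of day at which fat was taken is not given in the sources used here.

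Several other gene lists had medians between -0.13 and 0.11, against 0.04 for all genes. Of all genes, 26.1% were higher and 18.1% lower on all 4 chip differences. Fatty acid oxidation had 5 of 22 genes higher and 3 lower on all 4 chip differences (median 0.05), cholesterol synthesis 2 of 19 higher and 6 lower (median -0.13), and breakdown of branched-chain amino acids 7 of 17 higher and 2 lower (median 0.11). Ribosomal protein genes had 1 of 27 higher and 3 lower (median -0.03), proteasome genes 7 of 23 higher and 2 lower (median 0.06), and genes of protein folding in the endoplasmic reticulum 11 of 25 higher and 5 lower (median 0.07). The widest of the folding genes whose groups did not overlap was Herpud1, which helps clear misfolded proteins, with 131 and 160 at 1 month and 94.8 and 77.3 at 1 week in control fat. Its restricted difference was -0.04, and the 1 week control pool was its lowest of the 10 pools. Interferon-induced genes had 6 of 23 higher and 1 lower (median 0.05), and insulin and IGF signalling genes 7 of 26 higher and 7 lower (median -0.08). With the 5%CR pool at 1 week in place of the 1 week control pool, the medians of fatty acid oxidation, cholesterol synthesis, branched-chain amino acids and ribosomal proteins changed sign, to -0.27, 0.07, -0.108 and 0.27. Of all these, 3 insulin and IGF signalling genes and 1 interferon-induced gene fell in the restricted pools.

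A last set of genes was high in the 1 week control pool and nowhere else. Ggh had 211 and 241 on the 1 month control chips and 891 and 902 on the 1 week control chips, 3.97-fold lower at 1 month, and passed in limma (-1.99 ± 0.18, adjusted p = 0.00348). The restricted pools lay between 177 and 226 at 1 month and between 177 and 194 at 1 week, so the 1 week control pool alone was high. The difference between the control and the restricted intervals, -2.13 ± 0.20, also passed (limma adjusted p = 0.0120), the only such call among 9489 probe sets (0.0105%). Prdx4, a peroxiredoxin of the secretory pathway, had 284 and 265 at 1 month and 634 and 525 at 1 week, against 233 to 275 at 1 month and 302 to 327 at 1 week in the restricted pools. Ero1b, an oxidase for disulfide bonds that is rich in pancreas, had 28.5 and 32.8 at 1 month and 140 and 82.6 at 1 week. Ins1, insulin of islet beta cells, had 27.8 and 31.3 at 1 month and 153 and 132 at 1 week, and Klk1b3, a glandular kallikrein, had 10.6 and 1.94 at 1 month and 188 and 121 at 1 week. Klk1b3 lay between 6.18 and 16.0 at 1 month and between 4.86 and 8.2 at 1 week in the restricted pools. It passed the signal filter, a mean over the control chips, only through the 1 week control chips. That Klk1b3 was high in this pool alone was thus partly fixed by the filter. Ang, angiogenin, had 38.1 and 32.3 at 1 month and 109 and 105 at 1 week. In the restricted pools none of Ggh, Prdx4, Ero1b, Ins1, Klk1b3 and Ang was called. For Klk1b3 the restricted signals lay near the low end, so that test cannot decide whether it changed. With the 5%CR pool at 1 week in place of the 1 week control pool, the differences of Ggh, Ero1b and Ins1 turned to 0.22, 0.09 and 0.14. These genes were high in the same control pool as the pancreatic messages (mean log2 of the list 2.98 at 1 month and 10.7 at 1 week). The 30%CR pool at 1 week held a low level of those messages (5.46). Its signals were 179 for Ggh, 303 for Prdx4, 33.9 for Ero1b, 21.7 for Ins1, 4.86 for Klk1b3 and 46.7 for Ang. The part of the pancreatic messages in the values of these genes was not tested.

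**Figure D3:**
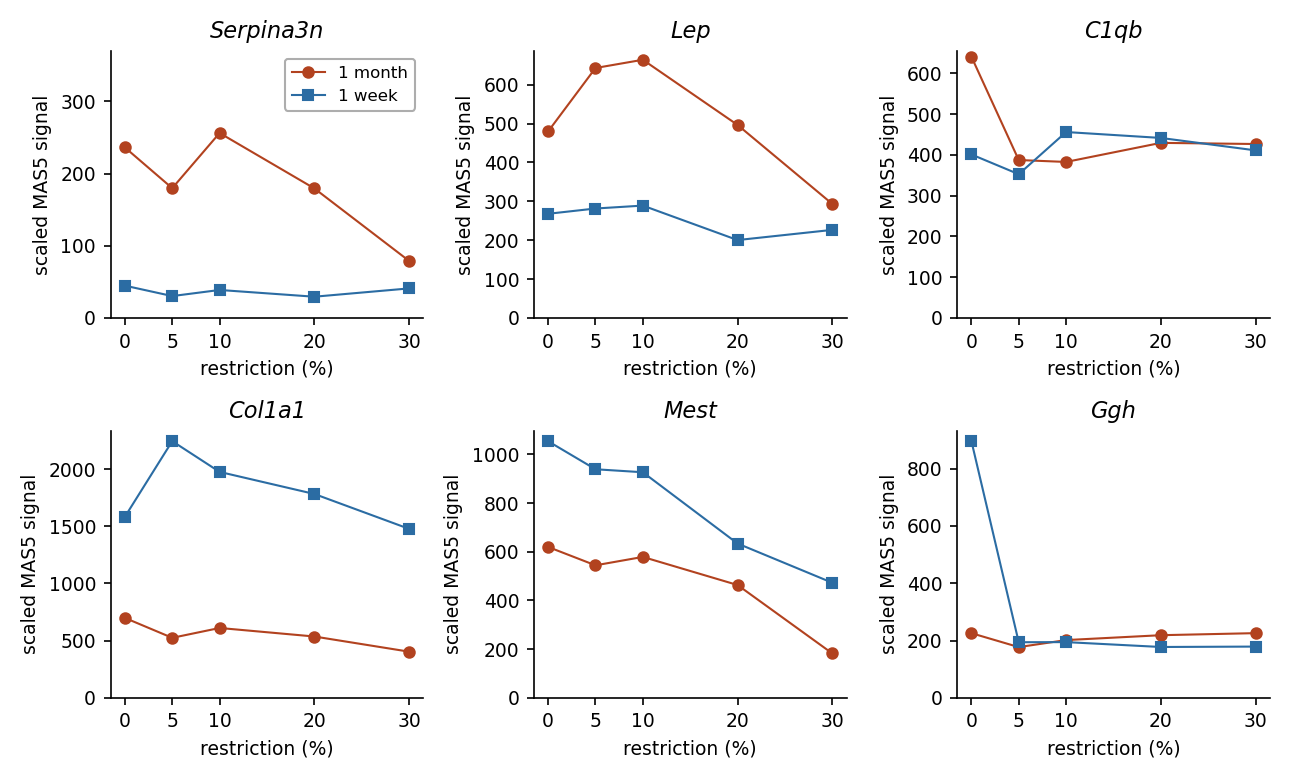
Mean scaled MAS5 signal of the 2 chips of each pool (vertical axis, from 0) against the restriction of food in % (horizontal axis, 0 for control) for 6 genes, with circles for 1 month and squares for 1 week. Serpina3n and Lep lie above and Col1a1 and Mest below at 1 month at every level of restriction, C1qb is high in the 1 month control pool and Ggh in the 1 week control pool.

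**Figure D4:**
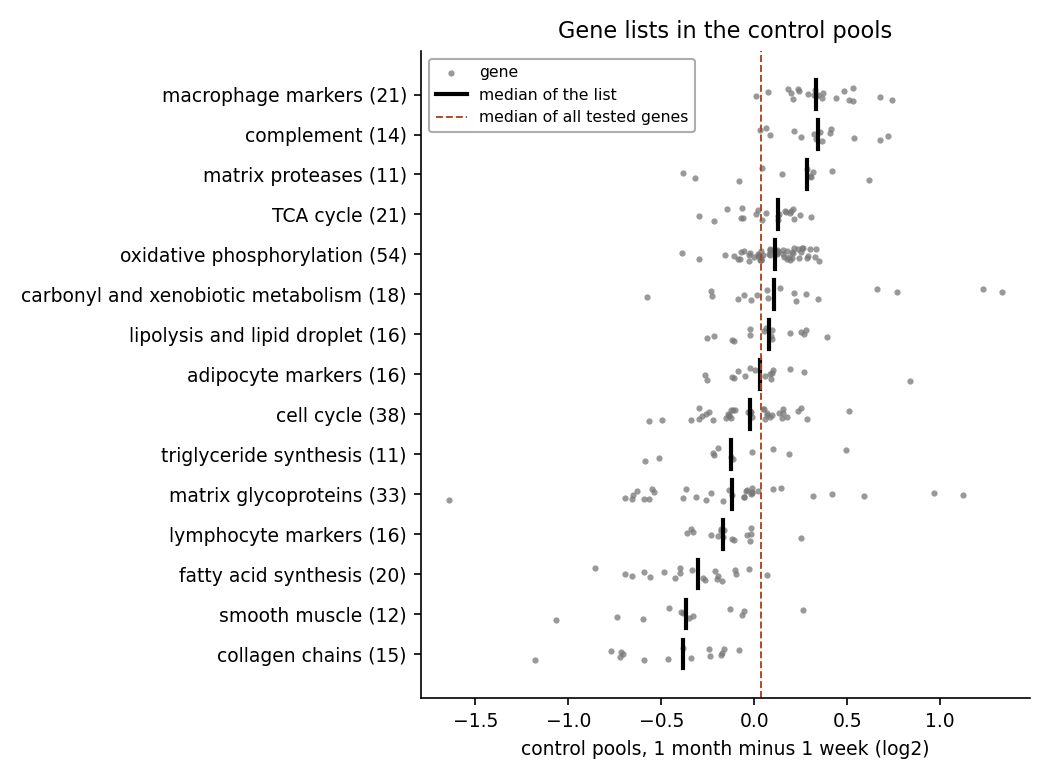
Difference of 1 month minus 1 week in the control pools (horizontal axis, log2) for each tested gene of 15 lists, with grey points for genes, a black bar for the median of the list and a dashed line for the median of all tested genes (0.04). Macrophage markers and complement lie highest (medians 0.33 and 0.34) and collagen chains and smooth muscle lowest (-0.38 and -0.37).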

How the data were processed

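Adipose RNA of 10 groups of rats was hybridised to Affymetrix Rat Expression Set 230 arrays, 2 chips per RNA pool of 5 rats. The deposited values are MAS5 signals, a linear intensity per probe set, which the authors computed with the array software. They had been scaled apart in 4 sets (each duration by replicate number; trimmed means 77.7, 112, 98.4 and 98.1), so set and duration cannot be told apart. No counts or depths exist for arrays, and the number of pools limits the precision.

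Each chip was brought to a 2% trimmed mean of 100, values under 1 were set to 1, and log2 was taken. Probe sets with a mean of at least 26 over the control chips (the 40th percentile) were kept, 9520 in all, and 31 that hold or follow exocrine pancreas genes were set aside. Gene names came from the platform annotation (12783 of 15866 probe sets with 1 symbol, 312 with several, 2771 with none), and the probe set with the highest mean stood for a gene. limma 3.58.1 in R 4.3.3 was fitted to the 10 pool means with cells for duration by control or restricted, a common slope on restriction and an intensity trend, with Benjamini-Hochberg adjustment over 9520 probe sets and a threshold of 0.05. SE values are from this fit. Each restricted pool had its own level and duration, so the p-values rest on how pools depart from the common slope on restriction. They measure neither the spread between rats nor that between pools treated alike. The alternatives were other scalings, floors, offsets, filters, models, folds and left-out pools or chips.

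Genes were named by a rule: those with the widest differences past the 2-fold rule at a signal of at least 100, the widest of each list, those past the limma difference and 11 genes in any case. Other genes named in the text were chosen after their values were seen. The members, gene lists and tests were chosen with earlier results of these data known. The change calls that the study made with the array software were not used here. Promoter windows came from RefSeq.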

Additional observations from a re-analysis of the deposited data

Results flagged for a closer look

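The difference between the control and the restricted intervals (1 month minus 1 week in control pools, less the same in restricted pools) passed in limma for 3 genes (adjusted p = 0.0120 each), and 2 of them are pancreatic genes that the comparison had set aside. For Ggh the difference was -2.13 (control -1.99, restricted 0.14). For Cela1, a pancreatic elastase, it was -6.36 (control -6.48, restricted -0.12). For Reg1a, a pancreatic secretory protein, it was -5.80 (control -6.02, restricted -0.23). In all 3 the 1 week control pool was the high one. For Cela1 and Reg1a that is why pancreatic genes were set aside, so their calls are a description only.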

How the results depend on the processing

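With 1 pool per group and 2 technical chips, the control comparison has no replicate error of its own, and 8 of the 23 higher and 14 of the 33 lower probe sets reached a signal of 100. Counts moved as follows. With an offset of 16 added to the signals the 2-fold rule had 5 higher and 16 lower and limma 9 falls in control fat and 4 interval differences. A filter at the 60th percentile left 9 higher and 12 lower, and no filter 589 and 601, with 7 control falls and 2 interval differences. At least 1.5-fold there were 239 higher and 250 lower probe sets, and at least 3-fold 1 and 8. A floor of 16 gave 6 control falls and 4 interval differences, and quantile normalization 5 control falls. Median scaling gave 38 restricted calls and 2 interval differences. Without a slope, limma had 1 control fall and 144 restricted calls, with restriction level as a factor 1 and 114, and without the intensity trend 108 restricted calls and 2 interval differences. With the pancreas list alone set aside there were 5 control falls, and with nothing set aside 61 lower probe sets, 13 control falls and 3 interval differences. Fitting chips with the replicate number as a block gave 9 control rises, 14 control falls, 581 restricted calls and 4 interval differences, but the numbers pair no samples, since they mark repeat chips. Leaving out replicate 1 or 2 gave 65 to 78 higher and 80 to 83 lower by the 2-fold rule, and leaving out a restricted pool or a replicate gave 0 to 2 control rises, 1 to 5 control falls, 34 to 215 restricted calls and 1 to 2 interval differences. With the 5%CR pool at 1 week in place of the 1 week control pool (added after seeing the data), 104 probe sets were at least 2-fold higher.

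Some medians changed sign. Without replicate 1 and without replicate 2, the medians were 0.078 and -0.421 for lymphocyte markers, -0.259 and 0.067 for triglyceride synthesis and 0.342 and -0.115 for class II antigen genes. With the substituted pool the medians were -0.155 for the TCA cycle, 0.070 for cholesterol synthesis, -0.108 for branched-chain amino acid genes, -0.043 for matrix proteases, -0.155 for xenobiotic genes, 0.035 for smooth muscle, -0.077 for mesothelial and 0.713 for lymphocyte markers, and Ggh, Ero1b and Ins1 were 0.218, 0.092 and 0.140. Medians nearer 0 turned with it too, among them -0.227 for adipocyte markers, -0.193 for adipocyte transcription factors, -0.251 for lipolysis and -0.266 for fatty acid oxidation. Since the substituted pool was food-restricted, the swap changes diet as well as the 1 week animals, and the cause was not tested.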
